A study of Rattus norvegicus with 60 samples.

Results

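Immediate early genes are transcribed within minutes of a stimulus, without the need for new protein, when calcium and MAP kinase signalling act on transcription factors such as Creb1 and the serum response factor that are already bound at their promoters. In the brain they are widely read as a record of recent neuronal activity, and handling, novelty and the procedure of killing can all reach them. The 10 genes examined here were Fos, Jun and Junb, which encode subunits of the dimeric factor AP-1. Egr1 is a zinc-finger factor, Nr4a1 an orphan nuclear receptor and Klf2 a Krüppel-like factor best known in endothelium. Dusp1 is a phosphatase that switches MAP kinases off. Arc is a synaptic protein that promotes the removal of AMPA receptors, Homer1 a scaffold of the postsynaptic density with an activity-induced short form, and Ptgs2 the inducible cyclooxygenase of prostaglandin synthesis.

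The members were all probe sets that the platform annotation assigns to 1 of these 10 symbols, 22 of 31042 probe sets, and 1 further probe set shared by Homer1 and Hax1 was left out. Of the 22, 19 passed the filter on low values (a mean over all arrays of at least 7.68 on the log2 scale) and entered the tests with 18625 probe sets in all, and the other 3 were dim Klf2 probe sets. The tissue came from 6 rats of an NP.P congenic line, numbered 1 to 4, 9 and 10, and 6 rats of the selected non-preferring line NP, numbered 5 to 8, 11 and 12. NP was bred for low alcohol preference, and the congenic line is known to carry a chromosome 4 segment of the preferring line on the NP background, so that both lines share that background. Accumbens, amygdala, frontal cortex, hippocampus and striatum were taken from each of the 12 adult rats, for which the labels name no treatment, after daily habituation to handling and to the guillotine, which gives 60 Affymetrix arrays, 1 per rat and region. None of the 10 genes lies on chromosome 4. Each array holds the RNA of a whole dissected region, so more cells of a type and more RNA per cell cannot be told apart.

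Defining markers followed most labels: 15 of 15 medium spiny neuron markers were higher in striatum and 14 of 15 in accumbens, and 7 of 8 hippocampal neuron markers were higher in hippocampus, each against the other regions. The cortical excitatory neuron list, as the mean log2 value of its 11 genes, ran from 10.01 to 10.47 in frontal cortex. It ran from 10.29 to 10.50 in striatum, so it did not separate these regions. Amygdala had no marker list of its own. The mean of the medium spiny neuron list ran there from 9.44 to 11.77, with a median of 10.50, against a median of 11.64 in accumbens. Array medians lay between 8.23 and 8.35. However, 7 arrays stood apart from their region. The arrays labelled congenic rat 3 amygdala and hippocampus each matched the other region's profile better than their own, and so did those labelled NP rat 8 accumbens and hippocampus. The other 3 were congenic rat 9 accumbens, NP rat 6 amygdala and NP rat 11 hippocampus. All were kept under their labels, and results that rest on them are given with and without them.

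The region in front of the start site is among the places where activity reaches these genes. The 3 promoters printed here belong to genes whose levels moved together over rats (described further on). A link between their motifs and that joint movement was not tested. They are RefSeq sequences of build GRCr8, the 250 bases before the annotated start, all on the plus strand. Capitals mark each TGACG on either strand, which reads CGTCA on the plus strand when the match lies on the other one. TGACG is the core of the cAMP response element bound by Creb1, and it lies within the full palindrome TGACGTCA, so that the 2 motifs overlap. The Nr4a1 promoter is chr7:134259888-134260137, that of Dusp1 chr10:17184603-17184852, and that of Junb chr19:40080876-40081125.
Nr4a1: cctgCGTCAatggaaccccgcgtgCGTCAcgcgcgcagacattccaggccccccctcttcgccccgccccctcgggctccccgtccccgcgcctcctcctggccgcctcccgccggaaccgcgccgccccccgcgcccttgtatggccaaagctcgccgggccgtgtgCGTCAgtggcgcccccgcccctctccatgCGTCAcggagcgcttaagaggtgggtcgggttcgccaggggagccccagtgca
Dusp1: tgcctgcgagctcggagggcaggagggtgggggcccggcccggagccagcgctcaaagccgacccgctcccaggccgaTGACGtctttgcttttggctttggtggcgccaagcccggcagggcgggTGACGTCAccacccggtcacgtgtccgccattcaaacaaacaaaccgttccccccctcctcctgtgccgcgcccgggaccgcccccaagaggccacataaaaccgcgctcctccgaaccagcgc
Junb: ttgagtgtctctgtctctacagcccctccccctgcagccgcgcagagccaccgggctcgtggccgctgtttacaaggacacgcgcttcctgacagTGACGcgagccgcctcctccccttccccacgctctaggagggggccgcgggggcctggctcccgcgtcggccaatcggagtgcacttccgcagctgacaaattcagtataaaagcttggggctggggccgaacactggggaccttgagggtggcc

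Positions are counted in bases from the start site, negative before it. Nr4a1 held 4 matches to TGACG, at -246, -226, -82 and -53. Dusp1 held 3, at -172, -124 and -121, of which the last 2 lie on opposite strands of the full TGACGTCA at -124. Junb held 1, at -155, and a TATAAA at -49. Among the matched members not printed, Egr1 held 2 matches to TGACG and 2 CArG boxes, the motif of the serum response factor, at -105 and -83. Homer1 and Ptgs2 held neither TGACG nor a CArG box in this window. Among 33469 rat promoters of the same length, searched on both strands, 18.2% held TGACG, 1.59% TGACGTCA, 1.5% a CArG box and 12.9% TATAAA, and none of the 6 matched members held the AP-1 site TGACTCA, found in 4.05%. A match describes the letters of the window and shows no binding. Arc, Fos, Jun and Klf2 have no entry in the promoter table.

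The question of the region comparison was where in the brain each gene stood high. Values are log2 array intensities, so a difference of 1 is a doubling, and they compare regions for 1 probe set, never 1 gene with another. Most members stood highest in striatum or frontal cortex and lowest in amygdala, hippocampus or accumbens. Each region was set against the mean of the other 4 in limma, with the rat as a block. Calls were made where the Benjamini-Hochberg adjusted p lay under 0.05. Over the members, 12 of 19 probe sets were called higher and 1 lower in striatum, and 11 higher and 4 lower in frontal cortex. In accumbens 2 were higher and 12 lower, in amygdala 3 and 10, and in hippocampus 4 and 9. Regional difference was common on these arrays. Of all probe sets, 69.6% were called in striatum (26.3% higher, 43.3% lower) and 61.3% in frontal cortex (35.6% higher, 25.7% lower). The same shares were 62.4% for accumbens (23.5% and 38.9%), 47.8% for amygdala (29.1% and 18.6%) and 54.3% for hippocampus (33.1% and 21.2%). The members' share of called probe sets was thus near the background in striatum. In the other regions it was higher than the background, by gaps that were not tested. Within each region most of the called members went the same way. The median difference over all 19 member probe sets was 0.30 in striatum against -0.067 over all probe sets. It was 0.36 against 0.031 in frontal cortex and -0.44 against -0.051 in accumbens. In amygdala it was -0.26 against 0.035, and in hippocampus -0.16 against 0.041. Homer1 and Jun have the most probe sets, so they weigh more than the other genes in these counts and medians. A called difference of at least 2-fold was reached by 1 of 19 member probe sets in accumbens (Ptgs2), against 0.569% of all. It was reached by 2 in frontal cortex, both of Homer1, against 1.21%. None reached it in amygdala, hippocampus or striatum, where 0.268%, 0.897% and 0.940% of all did.

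**Figure D1:**
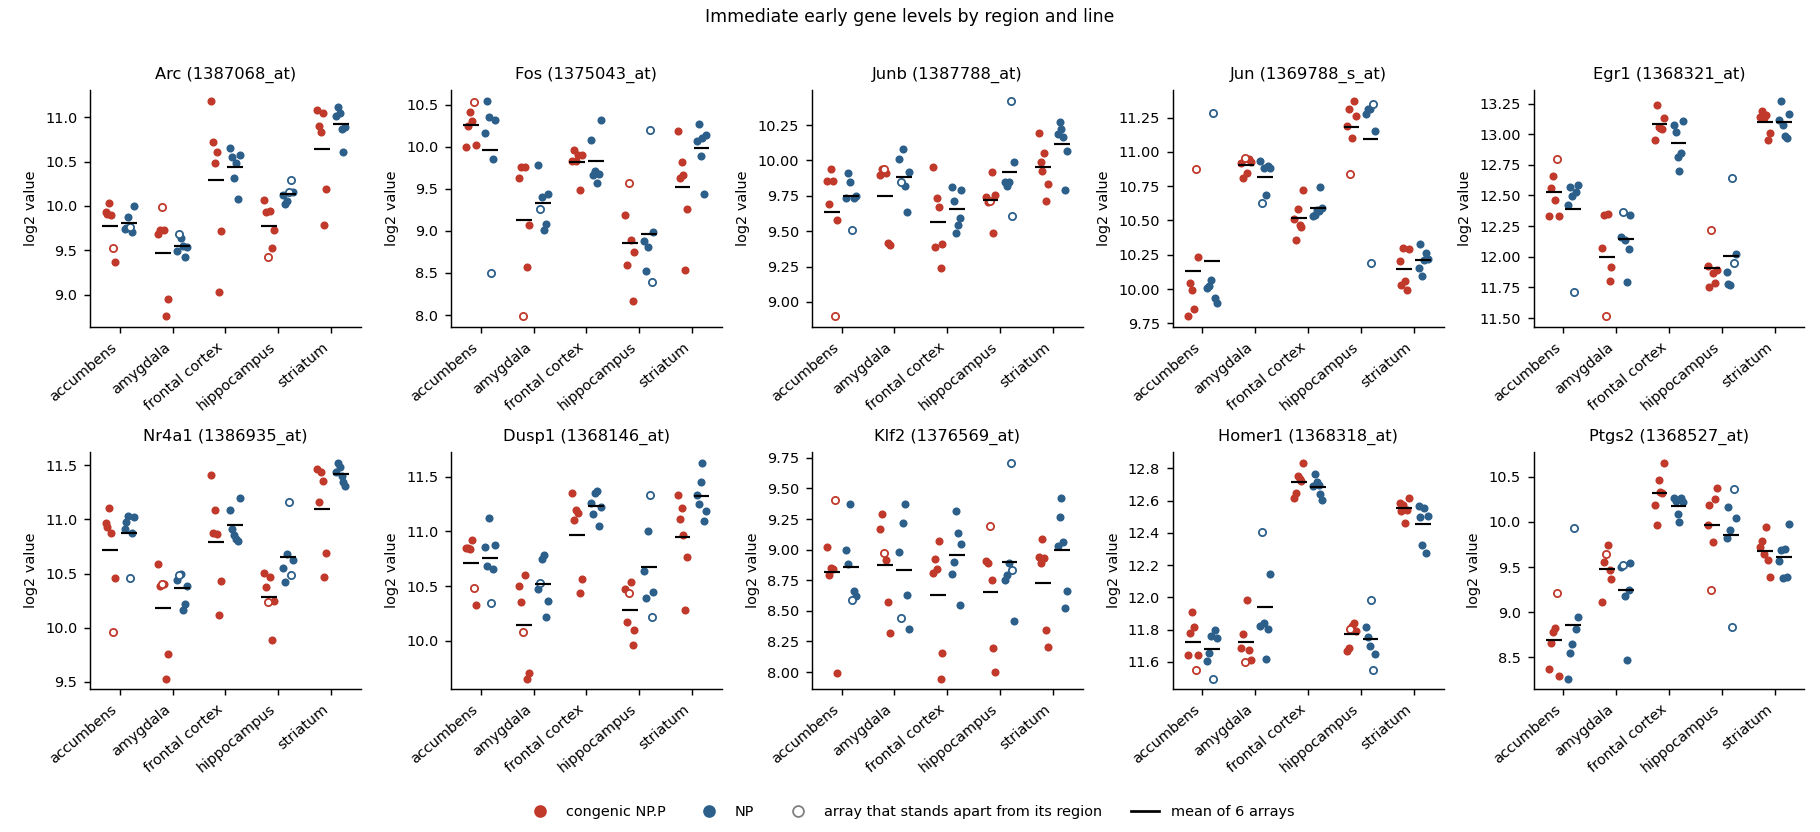
Log2 values (vertical axis) of 1 probe set for each of the 10 genes in the 5 regions (horizontal axis), 1 point per array and rat, with congenic rats left of NP rats; bars mark the mean of each line and open symbols the arrays that stand apart. Arc, Egr1, Nr4a1, Dusp1 and Homer1 are higher in frontal cortex and striatum, Jun in hippocampus and amygdala, and the means of Klf2 lie between 8.78 and 8.86.

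Arc transcripts travel into dendrites and are translated near active synapses. In striatum the 12 arrays of Arc (probe set 1387068_at) lay between 9.78 and 11.12, with a median of 10.89. The median was 10.52 for frontal cortex and 10.04 for hippocampus, and accumbens and amygdala had medians of 9.81 and 9.59. The arrays of these 4 regions lay between 8.75 and 11.19. The ranges overlapped, mainly through the wide spread in frontal cortex, which ran from 9.02 to 11.19. Arc was 1.84-fold higher in striatum than in the mean of the others (log2 difference 0.88 ± 0.07, SE, 12 rats; limma, adjusted p = 1.8e-14) and 1.63-fold lower in amygdala (-0.71 ± 0.07). Along its order, striatum, frontal cortex, hippocampus, accumbens and amygdala, every neighbouring pair differed except hippocampus and accumbens.

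Nr4a1, Dusp1 and Egr1 shared the upper end of that order. Striatal arrays of Nr4a1 (1386935_at) lay between 10.47 and 11.52, with a median of 11.38, and those of amygdala between 9.53 and 10.58, with a median of 10.39. The means were 11.26 ± 0.33 in striatum, against 10.87 ± 0.34 in frontal cortex, 10.80 ± 0.34 in accumbens, 10.47 ± 0.30 in hippocampus and 10.27 ± 0.32 in amygdala (SD, n = 12 each). Striatum stood 0.65 ± 0.05 above the other regions and amygdala 0.58 below them (log2 difference -0.58 ± 0.05; limma, adjusted p = 6.4e-12). Only frontal cortex and accumbens were neighbours that did not differ. Dusp1 (1368146_at) averaged 11.14 ± 0.35 in striatum and 11.10 ± 0.30 in frontal cortex, against 10.73, 10.47 and 10.33 in accumbens, hippocampus and amygdala. Its top pair and its bottom pair were not separated. The dimmer Dusp1 probe set 1368147_at was likewise called higher in striatum (0.26) and frontal cortex (0.36), but its lowest region was accumbens (-0.48).

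Egr1 (1368321_at) separated the regions with little spread. Striatal arrays lay between 12.96 and 13.27 and those of frontal cortex between 12.70 and 13.24. No array of the other 3 regions went above 12.80, a value in accumbens, and the hippocampal median was 11.88. Striatum was 1.65-fold higher than the other regions (0.73 ± 0.07; limma, adjusted p = 2.3e-12) and hippocampus 1.63-fold lower (-0.70 ± 0.07). Striatum and frontal cortex did not differ, nor did amygdala and hippocampus, and with the 7 arrays that stand apart left out all 4 steps along the order were called.

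Fos and Jun, partners in AP-1, ran in nearly opposite orders. The accumbens arrays of Fos (1375043_at) lay between 8.50 and 10.55, with a median of 10.28, and the hippocampal ones between 8.17 and 10.20, with a median of 8.84. Its means were 10.11 ± 0.55 in accumbens, against 9.83 ± 0.23 in frontal cortex, 9.75 ± 0.50 in striatum, 9.23 ± 0.54 in amygdala and 8.91 ± 0.55 in hippocampus. Accumbens was 1.60-fold higher than the rest (0.68 ± 0.15; limma, adjusted p = 1.4e-04) and hippocampus 1.76-fold lower (-0.82 ± 0.15). Among the neighbours only striatum and amygdala differed. The accumbens array of NP rat 8 had 8.50 and its hippocampal array 10.20, the reverse of the group order. Without the 7 arrays that stand apart, Fos averaged 10.22 ± 0.21 in accumbens (10 arrays) and 8.75 ± 0.30 in hippocampus (9 arrays), and accumbens then differed from frontal cortex too. The dimmer Fos probe set 1371283_at spanned only 8.01 to 8.17 in its region means.

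Jun (1369788_s_at) averaged 11.14 ± 0.33 in hippocampus and 10.86 ± 0.10 in amygdala, against 10.55 ± 0.11 in frontal cortex, 10.18 ± 0.11 in striatum and 10.17 ± 0.45 in accumbens. Hippocampus was 1.62-fold higher than the other regions (0.70 ± 0.09; limma, adjusted p = 8.2e-09). The accumbens array labelled NP rat 8 had 11.29 and its hippocampal array 10.19. Without the arrays that stand apart the hippocampal values ran from 11.10 to 11.37 and those of accumbens from 9.80 to 10.23, and every neighbouring pair differed. The other 2 Jun probe sets were also called higher in hippocampus (0.69 and 0.73) and amygdala (0.47 and 0.46) and lower in accumbens (-0.74 and -0.75), but neither was called in striatum. Junb (1387788_at), the third AP-1 subunit, moved little: its region means ran from 9.61 in frontal cortex to 10.03 in striatum, and only striatum differed from its neighbour. Its call in accumbens (-0.13 ± 0.05, adjusted p = 0.025) was lost without the arrays that stand apart (-0.06, adjusted p = 0.216).

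Homer1 had the largest regional differences of the members. Probe set 1370454_at lay between 11.03 and 12.11 in frontal cortex, with a median of 11.78, and between 10.30 and 11.31 in striatum. In hippocampus it lay between 9.26 and 9.96, and the medians of amygdala and accumbens were 9.60 and 9.59. Frontal cortex thus overlapped only with striatum. It was 3.30-fold higher there than in the mean of the other regions (1.72 ± 0.09; limma, adjusted p = 8.9e-22). Probe set 1370997_at was 2.73-fold higher in frontal cortex (1.45 ± 0.09), whereas 1368318_at, 1370656_a_at and 1368319_a_at gave 0.75, 0.77 and 0.66. All 5 were called higher in frontal cortex and striatum, and all 5 lower in accumbens and hippocampus. Which transcript form each probe set reads was not analysed here, so the unequal sizes are given by probe set.

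Ptgs2, whose product makes prostaglandin H2 and is found in excitatory neurons of the forebrain, had its own order. Accumbens arrays of Ptgs2 (1368527_at) lay between 8.26 and 9.93 with a median of 8.72. Frontal cortex had a median of 10.25, hippocampus 10.01, striatum 9.67 and amygdala 9.49. Accumbens was 2.03-fold lower than the mean of the others (-1.02 ± 0.11; limma, adjusted p = 1.5e-10), and it alone differed from its neighbour in the order. The highest accumbens value, 9.93, was that of the array labelled NP rat 8. Without the arrays that stand apart accumbens ended at 8.94, and only frontal cortex and hippocampus remained undivided. Klf2 (1376569_at) showed no regional order: its means lay between 8.78 and 8.86 with SDs of 0.36 to 0.44, no region was called, and none of its neighbours differed. Over all 10 genes, 17 of 40 neighbouring steps were called, against 27.8% of such steps over all probe sets, and 27 without those 7 arrays, against 40.1%.

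Cell type markers also differed between regions, and their part in the members' values was not tested. The shares of all probe sets called per region, given above, apply to the marker counts too. The level of a list was taken as the mean log2 value of its genes. For the medium spiny neuron list, of 15 genes, it ran from 11.62 to 12.44 in striatum and from 9.41 to 9.59 in frontal cortex. Arc, Nr4a1, Dusp1 and Egr1 were higher in both of these regions, while the list was called higher in striatum for 15 of 15 genes and lower in frontal cortex for 14 of 15. Cortical excitatory neuron markers were called higher in both, 6 of 11 in frontal cortex and 6 of 11 in striatum. Of 12 endothelial markers 11 were called higher in frontal cortex, where the endothelium-associated factor Klf2 was not called (-0.04 ± 0.09, adjusted p = 0.69). Choroid plexus markers ran highest in hippocampus, with a mean over 5 genes between 8.89 and 11.81.

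Other genes of the same pathways, from lists chosen with earlier results known, gave a mixed picture. Of all probe sets, 35.6% were called higher and 25.7% lower in frontal cortex, and 26.3% and 43.3% in striatum. The same shares were 33.1% and 21.2% in hippocampus and 23.5% and 38.9% in accumbens. Of 17 tested inducible transcription factors outside the members, 11 were called higher and 3 lower in frontal cortex, among them Ier5 (1.13), Klf6 (0.68) and Klf10 (0.54) above and Nr4a2 (-1.05) below. In striatum 6 were higher, including Nr4a2 (1.05) and Egr2 (0.69), and 7 lower, including Nr4a3 (-0.63). Hippocampus had 5 in each direction, with Nr4a3 (1.27) and Cebpd (0.94) higher and Egr2 (-1.13) lower. Egr2 thus had the direction of Egr1 in striatum and hippocampus, whereas Nr4a3 had the opposite direction to Nr4a1 in both. Upstream kinases and transcription factors were called lower in accumbens for 13 of 18 genes and higher for 3, with Camk2a, a calcium-dependent kinase of excitatory neurons, at -1.04. In frontal cortex 9 of them were higher, led by Mef2c (0.99), and 3 lower, and Mef2c was lower in hippocampus (-0.94).

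Of 19 activity-inducible effector genes, 7 were called higher and 7 lower in hippocampus, 8 and 7 in striatum, and 5 and 6 in accumbens. In frontal cortex 7 were higher and 2 lower, and in amygdala 2 and 7. The shares of all probe sets above apply here too, with 29.1% higher and 18.6% lower in amygdala. Bdnf, a neurotrophin that neuronal activity induces, was lower in accumbens (-1.31) and higher in hippocampus (0.79). Among 12 partners of Homer1 and Arc, 8 were lower in accumbens and none higher. Homer3 was higher in hippocampus (1.60) and lower in frontal cortex (-0.73), against Homer1's direction in both, and the scaffold Shank3 was higher in striatum (0.90) and lower in accumbens (-0.64). In the prostaglandin pathway 6 of 10 genes were higher and 2 lower in accumbens, where Ptgs2 was lowest. Ptgds, which makes prostaglandin D2, was higher in amygdala (0.64) and lower in striatum (-1.11).

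The series was designed to compare the congenic line with NP, and with all 12 rats no member was called in any line comparison. With each rat as the mean of its 5 regions, 0 of 19 probe sets were called in limma, against 23 of 18625 (0.123%) overall. Within regions none of 19 was called either. The share of all probe sets called was 0.0644% for striatum, 0.0537% for frontal cortex, 0.0322% for amygdala and 0.00537% for both hippocampus and accumbens. At an unadjusted p under 0.05 there were 5 of 19 for hippocampus (3.95% of all probe sets), 3 each for striatum (4.86%) and amygdala (5.96%), and 1 each for accumbens (1.97%), frontal cortex (6.38%) and the mean over regions (5.33%). Every member overlapped between the lines in all 6 comparisons. Of all probe sets, 0.328% did not overlap for the mean over regions, and 0.258%, 0.376%, 0.462%, 0.226% and 0.199% did not for striatum, frontal cortex, amygdala, hippocampus and accumbens. The median difference, congenic minus NP, was -0.053 over the members and -0.002 over all probe sets. The line by region interaction was called for 0 members and 0 probe sets in all, and for 0 members and 2 probe sets (0.0107%) without the arrays that stand apart.

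Dusp1, the MAP kinase phosphatase, had the lowest unadjusted p of the members for the mean over regions. Its animal means (1368146_at) were 10.90, 10.72, 10.75, 10.84, 10.16 and 10.29 in congenic rats 1, 2, 3, 4, 9 and 10, against 10.91, 10.80, 11.14, 11.09, 10.65 and 10.82 in NP rats 5, 6, 7, 8, 11 and 12. The 2 lowest values were those of congenic rats 9 and 10, and the ranges overlapped. The difference was -0.29 ± 0.12 (limma, adjusted p = 0.911; unadjusted p = 0.034). In striatum it was -0.38 ± 0.14, and in no region was it called.

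Arc in hippocampus was the member with the lowest p within a region. Congenic rats 1, 2, 3, 4, 9 and 10 had 10.06, 9.93, 9.42, 9.95, 9.52 and 9.73, against 10.13, 10.02, 10.06, 10.16, 10.29 and 10.15 in NP rats 5, 6, 7, 8, 11 and 12. Only congenic rat 1 reached into the NP range. The difference was -0.37 ± 0.10 (limma, adjusted p = 0.982), and the hippocampal arrays of congenic rat 3, NP rat 8 and NP rat 11 are among those that stand apart. Without these 3 it was -0.25 ± 0.09 (limma, adjusted p = 0.631). Nr4a1 had -0.37 ± 0.13 in the same region and -0.24 ± 0.13 for the mean over regions (adjusted p = 0.911). The other members' mean differences were small: -0.14 for Junb, -0.10 for Fos, -0.17 for Klf2, 0.08 for Ptgs2, -0.01 for Jun and 0.01 for Egr1. Homer1 probe sets 1370997_at and 1370454_at had -0.36 ± 0.29 and 0.21 ± 0.11.

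Differences between rats of the same line, unlike those between the lines, passed the test for several members. The F test for differences between rats within lines, over all 5 regions, called 7 of 19 member probe sets in limma, against 42 of 18625 (0.226%) overall. They were Homer1 1370997_at (adjusted p = 2.2e-10), Nr4a1 (5.4e-07), both Dusp1 probe sets (1.1e-05 and 4.4e-05), Arc (5.6e-05), Klf2 1376569_at (0.0013) and Junb (0.0098). Without the arrays that stand apart 10 of 19 were called, against 290 probe sets (1.56%), with Fos (0.0027), Egr1 (0.035) and Homer1 1370454_at (0.0012) added. Among the other gene lists, Sgk1, Gadd45b and Errfi1, all stress- or activity-inducible effectors, were called of 19, and none of 17 inducible transcription factors. No list member among upstream factors, Homer1 and Arc partners or prostaglandin genes was called.

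Arc shows where these differences lay. The animal means of Arc were 10.39, 10.23, 10.15, 10.24, 9.32 and 9.59 in congenic rats 1, 2, 3, 4, 9 and 10, against 10.21, 10.23, 10.18, 10.17, 10.02 and 10.23 in NP rats 5, 6, 7, 8, 11 and 12. Congenic rats 9 and 10 were thus below all others, as they were for 6 of 19 member probe sets (Arc, Nr4a1, Junb, both of Dusp1 and Klf2 1376569_at), against 3.13% of all probe sets. They were the 2 lowest of 12 in 4 of 5 regions, and all 10 of their arrays lay below the region mean. In frontal cortex rat 9 had 9.02 and rat 10 had 9.72, whereas the other congenic rats had 11.19, 10.72, 10.48 and 10.61.

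Nr4a1 had the same outlying rats, at 9.99 and 10.32, where the remaining 4 congenic rats had 10.75 to 10.99 and the NP rats 10.74 to 10.91. All 10 of their arrays lay below the region mean for Nr4a1, as they did for Junb and for both Dusp1 probe sets. Klf2 (1376569_at) had 8.49 and 8.14 in congenic rats 9 and 10 and 8.90 to 8.99 in the other 4. In NP rats 11 and 12 this probe set had 8.64 and 8.62, below the 8.86 to 9.24 of NP rats 5 to 8. Klf2 1375248_at had 7.89 and 8.06 in congenic rats 9 and 10 and 8.00 to 8.06 in the other 4. Homer1 1370997_at had 8.47, 8.17, 8.00 and 8.78 in rats 9 to 12 of both lines, where rats 1 to 8 had 8.70 to 9.73, and NP rat 12 alone reached into that range. By contrast the animal means of Egr1 stayed between 12.37 and 12.64, and those of Homer1 1368318_at between 12.01 and 12.22.

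**Figure D2:**
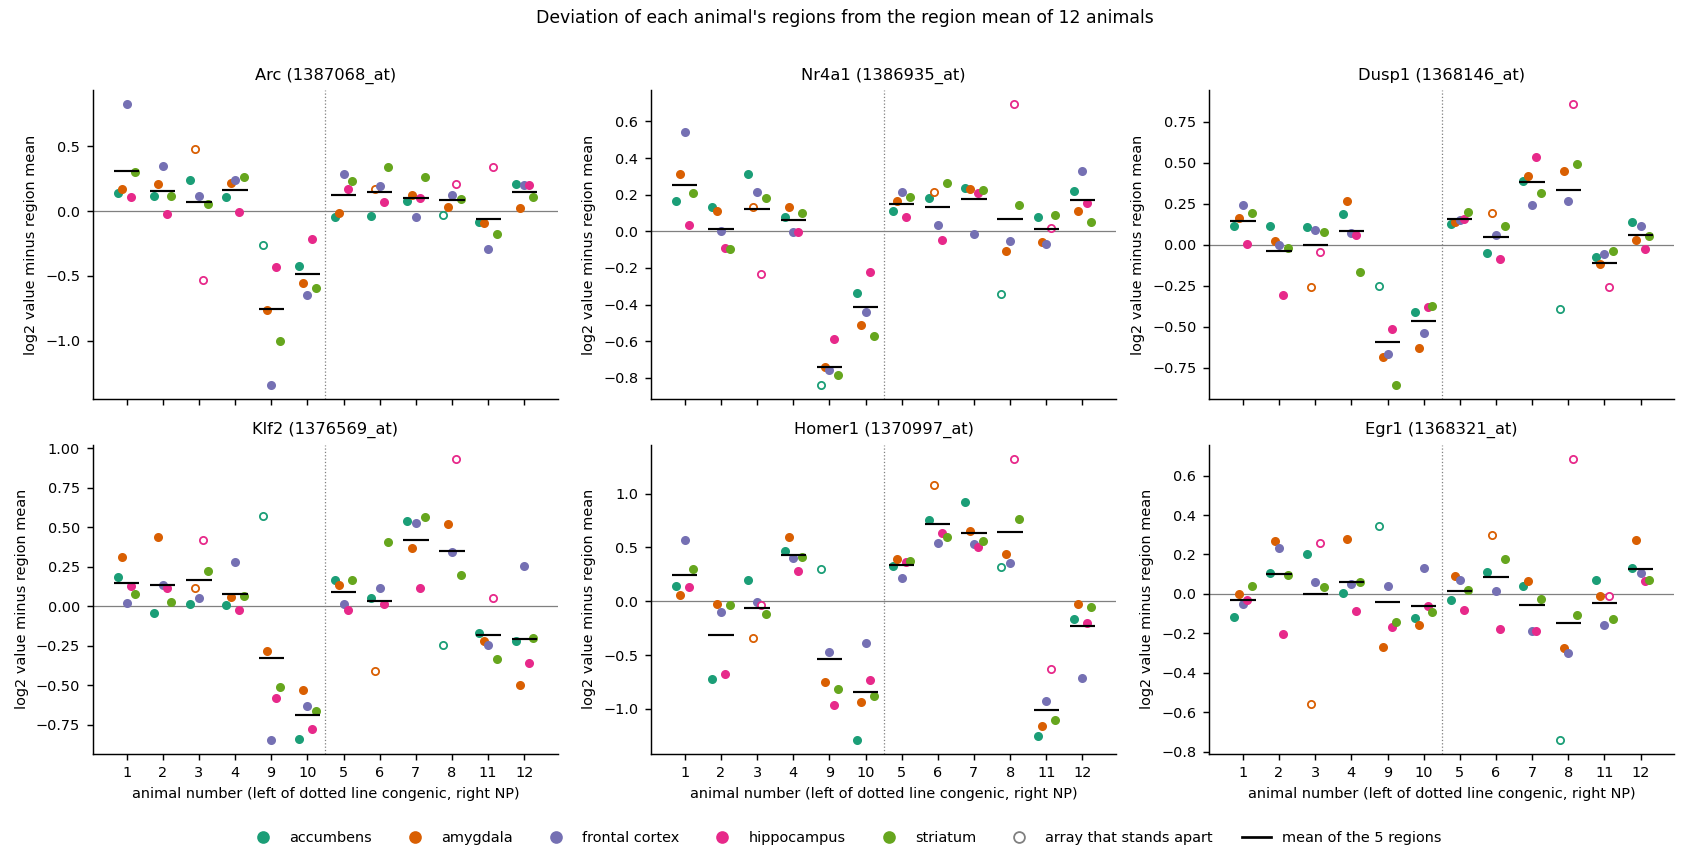
Deviation of each array from the mean of its region (vertical axis, log2 units) for each rat (horizontal axis, congenic rats left, NP rats right), 1 point per region and a bar at the rat's mean. Congenic rats 9 and 10 lie below 0 for Arc, Nr4a1 and Dusp1 in all 5 regions, and Homer1 1370997_at lies low in rats 9 to 12.

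The labels give each rat a number and name no batch. The numbers alternate between lines (congenic 1 to 4, NP 5 to 8, congenic 9 and 10, NP 11 and 12), and a split after rat 8 is read here from that order alone. A comparison of the 2 runs of numbers, chosen after the values were seen, called 4 of 19 member probe sets, all lower in rats 9 to 12, against 1.15% of all probe sets lower and 2.13% in either direction. The log2 differences were -0.41 ± 0.07 and -0.52 ± 0.07 for the 2 Dusp1 probe sets (limma, adjusted p = 0.0199 and 0.00877). They were -0.53 ± 0.08 for Klf2 1376569_at (0.0151) and -0.99 ± 0.16 for Homer1 1370997_at (0.0165). The other tested Klf2 probe set, 1375248_at, was at -0.07 ± 0.03 and not called. Homer1 1368318_at, 1370656_a_at, 1368319_a_at and 1370454_at had -0.03, -0.10, -0.12 and -0.27, none of them called. Arc had -0.44 ± 0.11 (0.0575), Junb -0.25 ± 0.06 (0.0523) and Nr4a1 -0.37 ± 0.11 (0.0754). Without the arrays that stand apart 7 were called, against 2.63% of all, with Arc (-0.49, 0.041), Junb (-0.21, 0.045) and Homer1 1370454_at (-0.34, 0.035) added.

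The values within each line are a description, since congenic rats 9 and 10 had already been seen to be the lowest for these genes, and the calls restate that. Within the congenic line, rats 9 and 10 against rats 1 to 4 gave 6 member probe sets lower and 1 higher, against 2.21% of all probe sets lower and 4.82% higher (7.03% in all). Arc was lower by 0.80 (log2 difference -0.80 ± 0.08, SE) and Nr4a1 by 0.69 (-0.69 ± 0.08). Dusp1 1368146_at (-0.58), Klf2 1376569_at (-0.64) and Junb (-0.38) were lower as well, whereas Klf2 1375248_at had -0.06 and was not called. Jun 1369788_s_at was higher by 0.20, a call that was lost without the arrays that stand apart (0.09). Fos had -0.43 ± 0.14 and was not called. Within NP, rats 11 and 12 against rats 5 to 8 gave 0 members and 0 probe sets in all, with Arc at -0.07 ± 0.08, Nr4a1 at -0.04 ± 0.08 and Homer1 1370997_at at -1.20 ± 0.22. The difference between these run effects, congenic minus NP, was -0.73 for Arc and -0.65 for Nr4a1 (limma, adjusted p = 0.249 for both), and no probe set was called for it.

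The line difference was also computed within each run, and the difference between the 2 runs in it was not called (above). Among rats 1 to 8 the congenic rats differed from NP rats by 0.06 ± 0.06 for Arc, -0.02 ± 0.07 for Nr4a1 and -0.18 ± 0.07 for Dusp1, with 0 of 19 called against 0.113% of all probe sets. Among rats 9 to 12, Arc (-0.67 ± 0.09) and Nr4a1 (-0.67 ± 0.10) were called in limma, 2 of 19 against 0.0591%, on 2 rats per line. These calls too rest on the rats already seen to be low and are no independent test of the line. Cell type markers were compared between the same rats, and their part in these results was not tested. No gene of the astrocyte, blood, choroid plexus, cortical, hippocampal, medium spiny neuron, microglia or oligodendrocyte lists was called between congenic rats 9 and 10 and congenic rats 1 to 4, and 2 of 12 endothelial genes were lower. The mean of the endothelial list deviated by -0.07 to 0.02 in congenic rats 9 and 10, against -0.06 to 0.07 in congenic rats 1 to 4, in log2 units. The medium spiny neuron list was the 1 of 9 cell type lists without overlap, at -0.13 to -0.09 in congenic rats 9 and 10, against -0.05 to 0.01 in congenic rats 1 to 4. Its ranges overlapped without the arrays that stand apart, at -0.07 to 0.04 against -0.03 to 0.02. Of the inducible transcription factors 3 of 17, and of the effectors 3 of 19, were called lower in congenic rats 9 and 10, and none higher.

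**Figure D3:**
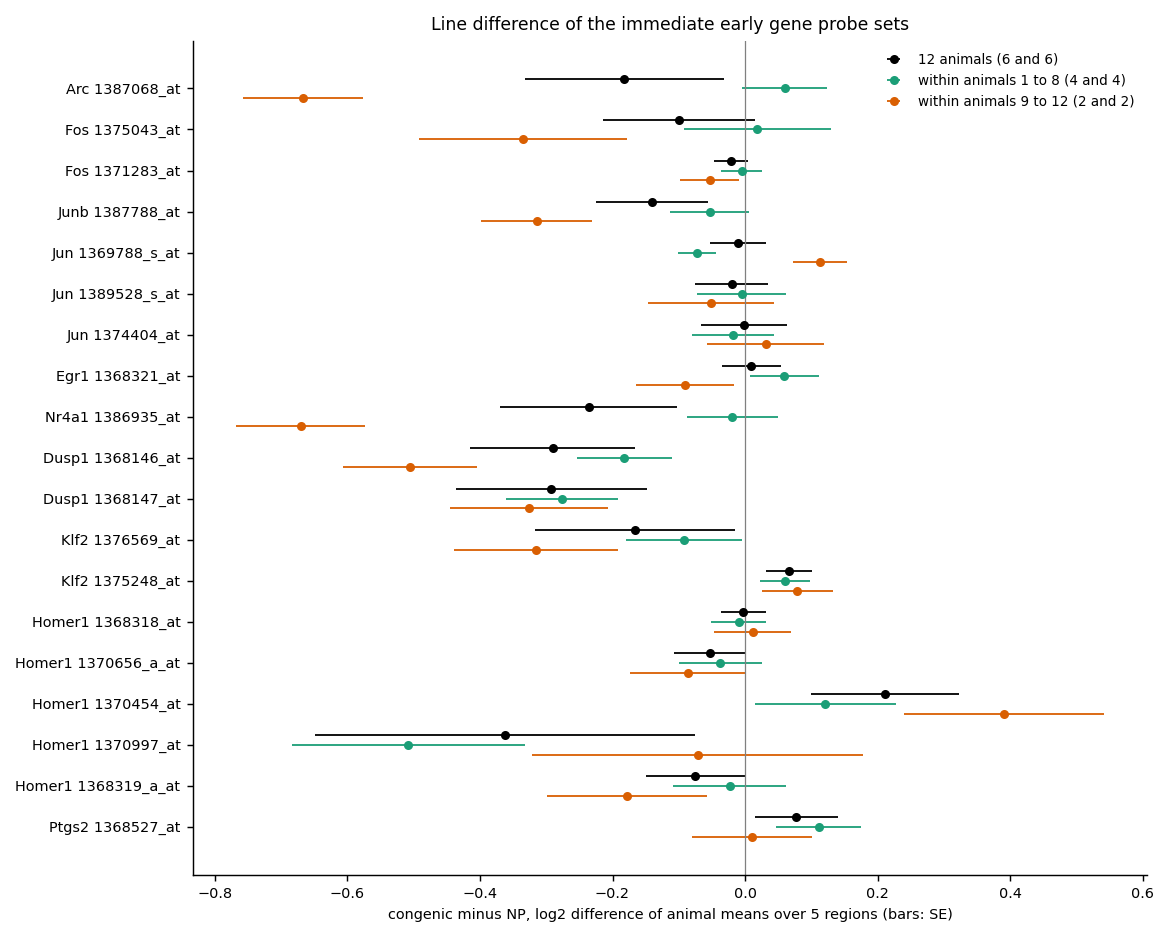
Line difference, congenic minus NP in log2 units (horizontal axis), of the 19 tested member probe sets (listed down the page), from the animal means over 5 regions of all 12 rats, of rats 1 to 8 and of rats 9 to 12; bars are SEs. Over all rats the differences lie between -0.36 for Homer1 1370997_at and 0.21 for Homer1 1370454_at, and in rats 9 to 12 Arc and Nr4a1 lie at -0.67.

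How far the genes moved together was measured over the 12 arrays of a region. Values were taken as deviations from the line mean within a region, so that no line difference enters. Each of the 45 pairs of genes (1 probe set per gene) was correlated in each of the 5 regions. Arrays whose profile matched another region better were kept under their labels, so region differences can enter through them. The p-values came from 100000 shuffles of the rats within lines and were adjusted over all 225 correlations. Striatum had 15 of 45 pairs called, all positive, hippocampus 13 (8 positive, 5 negative) and accumbens 8 (5 and 3). Amygdala had 6 and frontal cortex 5, all positive. The median correlation over the 45 pairs was 0.485, 0.324, 0.184, 0.221 and 0.092 in that order of regions. Of all correlations of a member with any other probe set, 1.96% in striatum, 8.11% in hippocampus, 13.6% in accumbens, 2.67% in amygdala and 0.235% in frontal cortex were at least as strong as the weakest called pair.

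**Figure D4:**
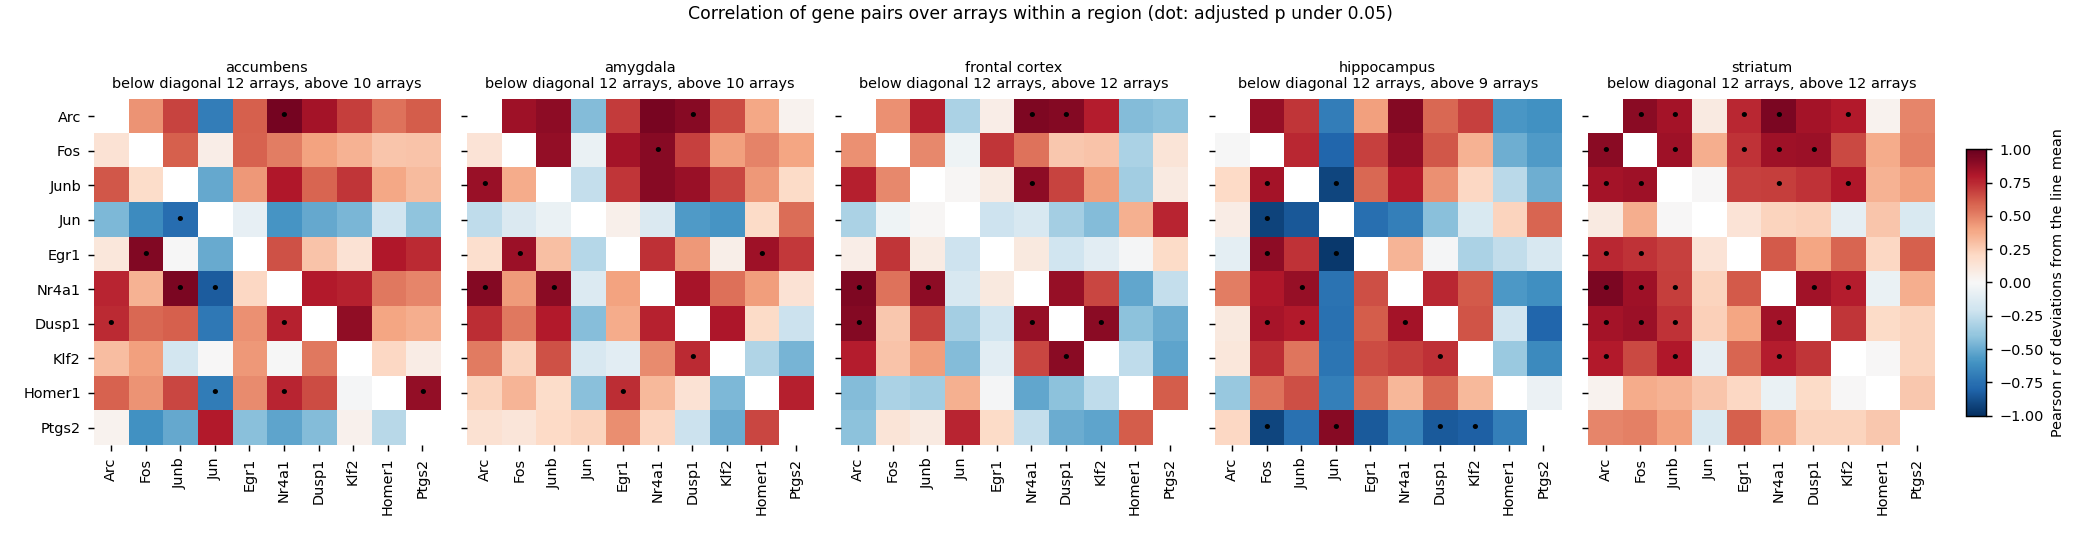
Pearson correlation (colour scale from -1 to 1) of each pair of the 10 genes over the arrays of a region, below the diagonal with 12 arrays and above it without the arrays that stand apart; dots mark an adjusted p under 0.05. In striatum 15 pairs are called, among them all 10 pairs of Arc, Fos, Junb, Nr4a1 and Dusp1, whereas Jun and Ptgs2 are negatively correlated with Fos in hippocampus over 12 arrays.

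Junb and Nr4a1 were the pair called in all 5 regions. Their Pearson correlation was 0.944 for accumbens, 0.899 for amygdala, 0.898 for frontal cortex, 0.873 for hippocampus and 0.695 for striatum, with permutation p between 0.00045 and 0.0059 (adjusted p between 0.0194 and 0.0346). Spearman's rho was 0.930, 0.832, 0.797, 0.804 and 0.769. With the 2 rats farthest from the median left out, r remained between 0.610 and 0.860. Leaving out the arrays that stand apart gave r of 0.695 to 0.911, and the pair was called in 2 of 5 regions, as it was with rho in place of r over all arrays. Among rats 1 to 8, where no pair passed the adjustment over 225 correlations in the exact permutation test (which can give no p below 0.0017), r was 0.874, 0.455, 0.859, 0.907 and 0.443.

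Arc and Nr4a1 gave the highest single correlation of striatum, 0.944 (permutation p = 0.0016, adjusted p = 0.0211; rho 0.923). In amygdala r was 0.918 and in frontal cortex 0.933 (both called), in accumbens 0.765 and in hippocampus 0.509. By closeness to Arc among 18624 probe sets, Nr4a1 ranked 1 in frontal cortex, 2 in striatum and 3 in amygdala. Its rank was 27 in accumbens and 2490 in hippocampus. Much of the correlation of Arc and Nr4a1 rested on rats 9 to 12. Among rats 1 to 8, r was 0.447 in striatum, 0.037 in amygdala, 0.764 in frontal cortex, 0.503 in accumbens and 0.478 in hippocampus. With the 2 rats farthest from the median left out, r was 0.787 in frontal cortex, 0.540 in striatum and 0.239 in amygdala. Leaving out the arrays that stand apart instead gave 0.922 to 0.955 over the 5 regions, called in 3 of them. Dusp1 and Nr4a1 had r between 0.766 and 0.868, called in all regions but amygdala. It was 0.757 to 0.868 and called in 1 region without the arrays that stand apart, and among rats 1 to 8 it ran from -0.116 in amygdala to 0.859 in hippocampus. Dusp1 and Klf2 had a median r of 0.727, led by 0.900 in frontal cortex (permutation p = 0.0023, adjusted p = 0.0216).

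**Figure D5:**
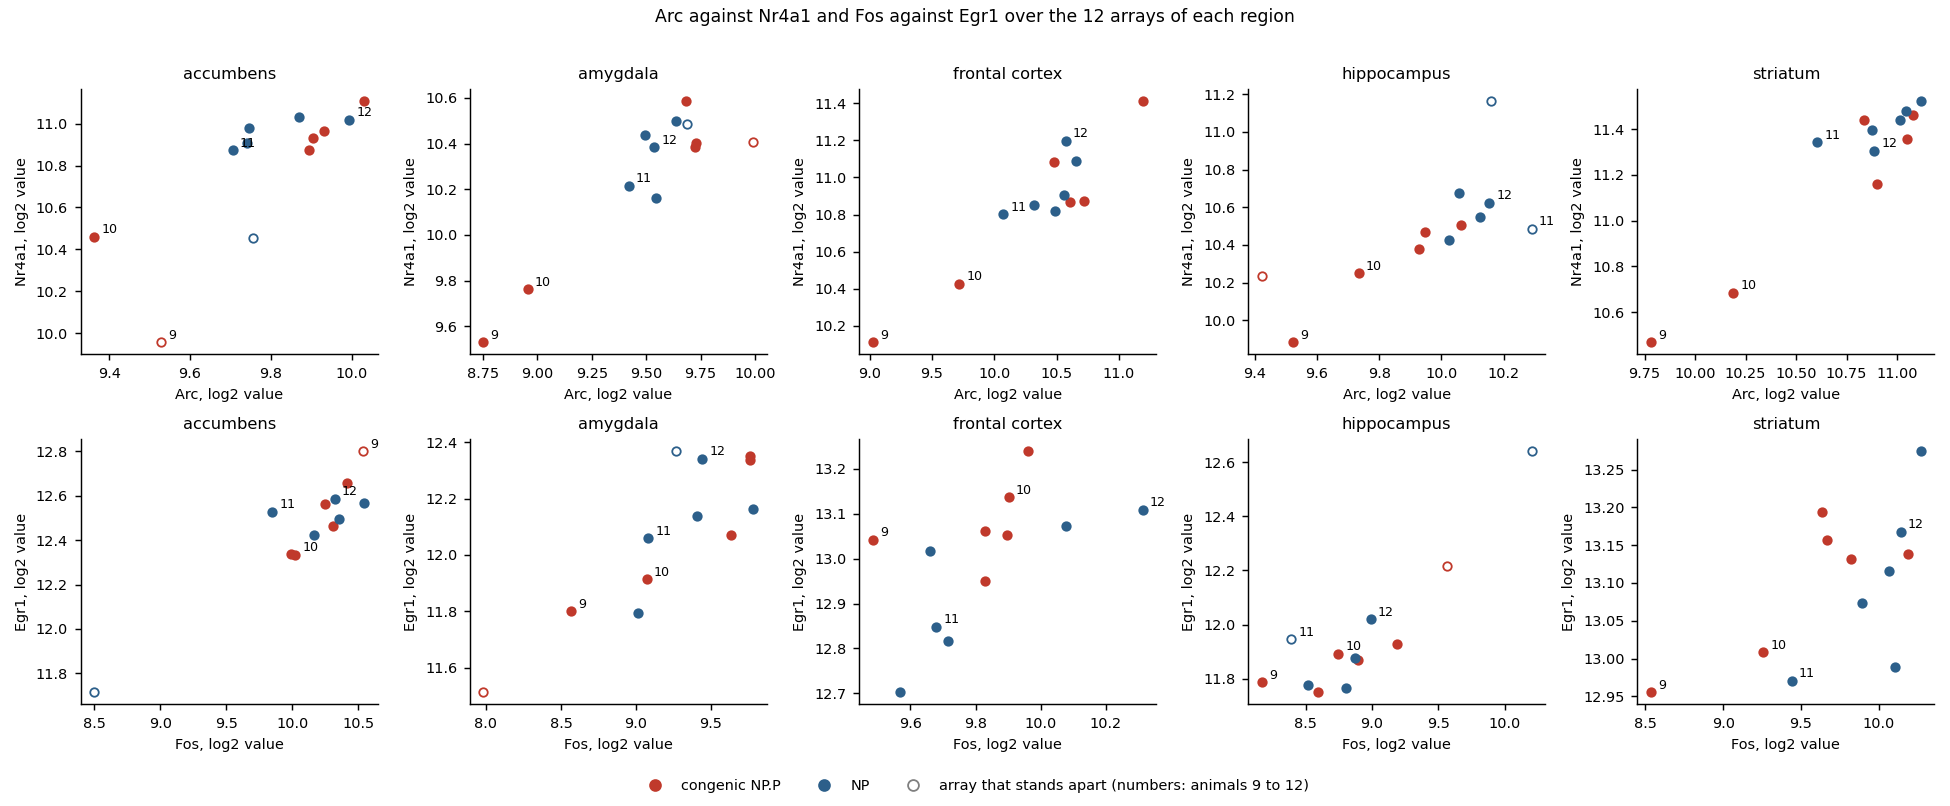
Arc against Nr4a1 (upper row) and Fos against Egr1 (lower row) over the 12 arrays of each region, both axes in log2 values, congenic and NP rats in different colours and arrays that stand apart as open symbols. In the regions with called Arc and Nr4a1 pairs, congenic rats 9 and 10 lie at the low end for Arc and Nr4a1, while Fos and Egr1 spread over other rats too.

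A second pair was Fos and Egr1. Their correlation was 0.928 for accumbens, 0.853 for amygdala, 0.712 for frontal cortex, 0.894 for hippocampus and 0.725 for striatum, called in all but frontal cortex (permutation p = 0.023, adjusted p = 0.0783). Among rats 1 to 8 it was 0.982, 0.858, 0.716, 0.98 and 0.194. The accumbens and hippocampal values among rats 1 to 8 include the arrays labelled NP rat 8; without the 7 arrays that stand apart, r over both runs was 0.589 and 0.681 in these regions and not called in the permutation test. With the 2 rats farthest from the median left out, r lay between 0.478 in hippocampus and 0.720 in frontal cortex.

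All 8 negative called pairs included Jun or Ptgs2. In hippocampus they correlated with each other (0.913; permutation p = 0.0012, adjusted p = 0.0194), and Jun ran against Egr1 (-0.961; permutation p = 0.00099, adjusted p = 0.0194). These values rest in part on the arrays that stand apart: without them, over 9 arrays, the permutation test gave 0.585 (adjusted p = 0.32) and -0.753 (adjusted p = 0.0914). In striatum Jun and Ptgs2 were at -0.152. Homer1 (1368318_at) had its closest member in Ptgs2 in frontal cortex (0.60), in Egr1 in amygdala (0.74) and in Fos in striatum (0.37). Without the arrays that stand apart the called pairs numbered 13 in striatum (against 1.96% of correlations as strong), 4 in frontal cortex (0.0897%), 3 in amygdala (1.19%), 2 in accumbens (0.281%) and 1 in hippocampus (0.379%), the last a negative one. The median correlation was then 0.447 in accumbens and 0.499 in amygdala, both above the values with all arrays, and -0.055 in hippocampus.

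The number of called pairs depended on single rats. Without congenic rat 9 the total fell to 1 of 225, against 47 with all rats, without congenic rat 10 to 15, without NP rat 11 to 24 and without NP rat 8 to 31. Leaving out any other single rat gave 36 to 45. The total with an unadjusted permutation p under 0.05 moved less, from 81 of 225 with all rats to 76 without rat 9. It rose from 16 to 20 in accumbens and from 10 to 11 in frontal cortex. Hippocampus fell from 25 to 23, striatum from 19 to 15 and amygdala from 11 to 7. The median r moved from 0.184 to 0.583 in accumbens and from 0.092 to -0.008 in frontal cortex. Without rat 9 it was 0.498 in striatum (0.485 with all rats), 0.349 in hippocampus (0.324) and 0.236 in amygdala (0.221). With Spearman's rho in place of r 16 were called. Among rats 1 to 8 none was called after the adjustment, and the exact test gave an unadjusted p under 0.05 for 15 hippocampal pairs, 6 in accumbens, 4 in frontal cortex, and 2 each in amygdala and striatum. The median striatal correlation among rats 1 to 8 was 0.172.

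Genes outside the members were ranked by their correlation, over 60 arrays and 10368 genes, with the mean of the members, each as a deviation from its region and line mean. This is a description of arrays that share rats. The 8 closest were Nab2 (0.676), Egr2 (0.639), Egr4 (0.635), Slc2a3 (0.628), Tiparp (0.601), Rbm24 (0.567), Klf10 (0.567) and Cx3cl1 (0.541), where the median gene had -0.003. Nab2 encodes a corepressor that binds Egr factors, and Egr2, Egr4 and Klf10 are themselves inducible transcription factors. Over the 53 arrays left without those that stand apart, Egr2 (0.844) and Klf10 (0.787) led, followed by Tsc22d1 (0.680) and Irs2 (0.664).

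The 3 closest genes were also taken for Arc, Fos and Egr1. Arc was closest to Nr4a1 (0.825), Dusp1 (0.672) and Junb (0.629), with 0.916, 0.804 and 0.777 for the same genes over the 53 arrays. Fos was closest to Egr1 (0.845), Egr2 (0.814) and Rln1 (0.756), and over the 53 arrays to Nr4a1 (0.750). Egr1 was closest to Fos (0.845), Npy (0.822) and Lamp5 (0.815). Npy and Lamp5 were no longer among its 3 closest over the 53 arrays, where Fos (0.699), Egr2 (0.662) and Btbd10 (0.640) stood.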

How the data were processed

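RNA of 5 brain regions from each of 12 rats was hybridised to 60 Affymetrix arrays, 1 per rat and region, per the labels. The deposited series table holds log2 values of 31099 probe sets per array, between 4.58 and 16.01; the authors' background correction, summarisation and normalization are not given in the sources used here, and the deposited values were used without a further normalization. The number of arrays limits the precision. After 57 control probe sets were dropped, only probe sets whose mean over all arrays reached the 40th percentile entered the tests. Symbols came from the platform annotation: 20826 probe sets had 1 symbol, 436 several and 9780 none. Line differences were tested in limma 3.58.1 (R 4.3.3) with lmFit and eBayes on means of each rat over its regions (6 against 6) and region by region, and region differences with the rat as a block, since the 5 arrays of a rat share its number. The consensus correlation of arrays of 1 rat was -0.016. p-values were 2-sided and adjusted over all probe sets kept. Correlations used scipy 1.17.1 and numpy 2.4.6. All named members are reported whatever their values; list genes are the called ones, with up to 3 highest and 3 lowest per list and region; likeness names the 8 closest genes to the members' mean and 3 each for Arc, Fos and Egr1. The members and lists were chosen with earlier results of these data known. On simulated data of 18625 probe sets the fit recovered 98.5% of log2 changes of 0.5 for the line mean over regions. The share was 80.6% for accumbens alone and 92.5% for a region difference. The simulated noise was independent between arrays and held no differences between rats. Several members differed between rats, so these shares do not carry over to them. Alternatives were other normalizations, filters, blocks and variance estimates, a second probe set per gene, and arrays or rats left out.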

Additional observations from a re-analysis of the deposited data

Results flagged for a closer look

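In groups of 6 rats of 1 line, 16 of 120 groups of member values (10 genes, 5 regions and the mean over regions, 2 lines) held a rat whose gap to its nearest neighbour, as a share of the group's range, passed Dixon's critical value; chance flags about 1 in 20 groups. Of these, 11 were arrays labelled NP rat 8. In accumbens that array had 8.50 for Fos, 11.72 for Egr1 and 10.46 for Nr4a1, each the lowest of its line, and 11.29 for Jun, the highest. In hippocampus the array labelled NP rat 8 had 10.20 for Fos, 12.64 for Egr1, 11.16 for Nr4a1 and 9.71 for Klf2, each the highest, and 10.19 for Jun and 8.84 for Ptgs2, each the lowest. Ptgs2 in amygdala was at 8.47 on the array labelled NP rat 8. The accumbens and hippocampal arrays are 2 of the 7 that stand apart from their labelled region.

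Among congenic rats, rat 9 was alone at the low end for Junb in accumbens (8.90) and for Fos in frontal cortex (9.48). Its accumbens array also stands apart, with a median correlation of 0.83 with the other arrays of that region. NP rat 11 was alone at the high end for Jun in frontal cortex (10.75), and at the low end of its line for the mean over regions of Arc (10.02) and of Junb (9.67).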

How the results depend on the processing

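Line comparisons for the mean over regions and within each region called 0 members under all alternatives run on more than 4 rats, with the run of rat numbers as a block, the rat as a random replicate block and each rat left out (0 to 0) included. Rats 9 to 12 alone, 2 per line, gave 2 called members, Arc and Nr4a1. Leaving out 1 rat moved the called members to 13 to 14 in accumbens, 12 to 14 in amygdala, 15 to 16 in frontal cortex, 13 to 14 in hippocampus, 12 to 13 in striatum, 6 to 7 for differences between rats, and 16 to 22 for neighbouring regions, where 27 were called without the arrays that stand apart. The pairing of a rat's arrays (replicate block) changed no regional count by over 1.5 times: without it 13, 13, 14, 13 and 13 were called. Junb in accumbens (-0.13, adjusted p = 0.096) and Nr4a1 in frontal cortex (0.17, adjusted p = 0.116) lost their calls without the block, and under quantile normalization too (-0.03, adjusted p = 0.59 and 0.08, adjusted p = 0.207). Settings added after the data were seen were those without rats 9 and 10 and with rats 1 to 8 alone: differences between rats then called 2 and 0 members. For rats 9 to 12 against 1 to 8, 2 were called with the filter at the 60th percentile and 7 without the arrays that stand apart.

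Called pairs, 47 of 225 in all, numbered 23 without the arrays that stand apart, 14 with a second probe set per gene, 16 with Spearman's rho, 0 in rats 1 to 8 with or without those arrays, and 1 to 45 with a rat left out. By region, those settings gave 2, 4, 2 and 0, with 0 to 7 for a rat left out, in accumbens; 3, 1, 2 and 0, with 0 to 7, in amygdala; 1, 1, 8 and 0, with 0 to 15, in hippocampus. Frontal cortex had 2 with the second probe set, 1 with rho, 0 in rats 1 to 8 and 0 to 6 with a rat left out, and striatum 6, 3, 0 and 1 to 16. The causes were not tested.

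Line differences of 6 members turned sign in some settings, without a call. With all rats and arrays Arc was at -0.18, Klf2 at -0.17 and Fos at -0.10. Only Homer1 (-0.003), Jun (-0.010) and Egr1 (0.009) were near 0. Without rats 9 and 10 Arc was at 0.0839, Fos at 0.0435, Klf2 at 0.0467 and Homer1 at 0.0042; in rats 1 to 8 Arc was at 0.0599 and Fos at 0.0185. Homer1 was also at 0.0019 under quantile normalization, 0.0030 with medians centred and 0.0337 without the arrays that stand apart. With a rat left out, Homer1 ran from -0.0200 to 0.0204, Jun from -0.0412 to 0.0119 and Egr1 from -0.0194 to 0.0359. Egr1 between the runs was 0.0034 with medians centred.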
